A study of Mus musculus with 12 samples.

Results

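Sptlc2, Cers3, Elovl4, Cyp4f39, Pnpla1, Ugcg, Abca12, Alox12b, Aloxe3 and Sdr9c7 are 10 genes for the ceramides and other lipids of the skin barrier. They were chosen by name, with earlier results of these data known and with no threshold on the counts. All 10 were found among the 56923 genes of the count table. All 10 also passed the filter on low counts and were among the 18529 genes tested.

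The RNA came from back skin of female mice between 8 and 10 weeks of age, in 12 libraries, 3 in each of 4 groups. The labels number the libraries and do not name the animals, and each is treated here as 1 mouse. Imiquimod (IMQ) is a Toll-like receptor 7 agonist whose cream inflames and thickens mouse skin, and the study used it to ask what loss of Lcn2 does to this psoriasis-like state. WT control mice were littermates given vehicle on the shaved back for 6 days, and WT IMQ mice were given cream with 5% IMQ instead. The other pair of groups had the same treatments in mice described as Lcn2-/- on a C57BL/6 background. The sample labels call this genotype a knockdown and the control treatment none, and no source names a further allele or agent, or a cell type to which the loss of Lcn2 is restricted.

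Lcn2 encodes lipocalin 2, a secreted protein that binds bacterial siderophores. It had 136, 201 and 86 counts in the WT control mice and 1010, 2723 and 1572 in the WT IMQ mice. The libraries labelled Lcn2-/- had 320, 173 and 357 under vehicle and 561, 511 and 830 under IMQ. Counts over the whole gene do not show whether a transcript is intact, but Lcn2 RNA was present in every library labelled Lcn2-/-. Under vehicle its CPM there, 10.5, 9.22 and 15.9, lay above the 6.29, 8.64 and 4.57 of the WT control mice. This difference under vehicle did not pass the threshold (log2 fold change 0.87, SE 0.41, adjusted p = 0.794, edgeR). Of all tested genes, 9.37% did not overlap between the control groups. CPM is the read count scaled to the normalized size of its library. Under IMQ, Lcn2 in libraries labelled Lcn2-/-, at 34.25, 29.9 and 49.8 CPM, lay below the 61.2, 183 and 76.1 of WT. That difference under IMQ did not pass the threshold either (log2 fold change -1.49, adjusted p = 0.0525, edgeR), and 33.3% of all tested genes did not overlap between the IMQ groups. Because Lcn2 RNA was present in them, the groups labelled Lcn2-/- are called by their label throughout.

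Library totals ran from 16448226 to 28592110 counts, and a floor of 3 counts corresponds to 0.105 to 0.182 CPM. Although the extraction text in the labels speaks of retinas, the keratins of basal and suprabasal epidermis were abundant in all 12 libraries, with group means of 1334 CPM or more for Krt5 and 1278 CPM or more for Krt10. Hair follicle markers, keratins and Tchh, were low under IMQ, with a summed level of 17.8 to 96.2 CPM in WT IMQ and 12.5 to 24.6 CPM in IMQ mice labelled Lcn2-/-. Tchh, which is not a keratin, had means of 25.5 and 12.3 CPM in these 2 groups. The sums varied widely among the controls, at 21.5 to 3436 CPM in WT and 240 to 11136 CPM in mice labelled Lcn2-/-. Of these 10 hair follicle genes, 3 were called lower under IMQ in WT (background 14.3% of all tested genes) and 10 in skin labelled Lcn2-/- (background 11.2%). In 1 or more libraries 6 of them, Krt25, Krt71, Krt73, Krt31, Krt34 and Krt81, had no counts. In whole skin, fewer cells of a type and less RNA per cell cannot be told apart.

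Ceramides are made from serine and a fatty acid and then carry chains of different length. Keratinocytes of the upper epidermis make a special class of them, the acylceramides, whose very long chain is hydroxylated at its end and joined to linoleic acid. They are capped with glucose, loaded into lamellar bodies, secreted, and in part oxidized and bound to the proteins of the cornified envelope. Inherited loss of function in many of these genes causes ichthyosis, a scaling skin disease.

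The stretches of 250 bases just upstream of 3 of the genes are shown because they set 2 genes that rose under IMQ, Cers3 and Abca12, beside the 1 that fell, Elovl4. They are from RefSeq on GRCm38.p6 and are printed 5′ to 3′ on the strand of the gene, at chr7:66743254-66743503 for Cers3 on the plus strand, chr1:71414911-71415160 for Abca12 on the minus strand and chr9:83806306-83806555 for Elovl4 on the minus strand. Capitals mark a match to AGGTCA, the half-site of many nuclear receptors.
Cers3: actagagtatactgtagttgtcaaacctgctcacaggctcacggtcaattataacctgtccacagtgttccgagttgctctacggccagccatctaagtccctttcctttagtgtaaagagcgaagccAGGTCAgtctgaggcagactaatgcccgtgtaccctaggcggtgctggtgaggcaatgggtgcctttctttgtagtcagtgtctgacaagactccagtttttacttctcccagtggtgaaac
Abca12: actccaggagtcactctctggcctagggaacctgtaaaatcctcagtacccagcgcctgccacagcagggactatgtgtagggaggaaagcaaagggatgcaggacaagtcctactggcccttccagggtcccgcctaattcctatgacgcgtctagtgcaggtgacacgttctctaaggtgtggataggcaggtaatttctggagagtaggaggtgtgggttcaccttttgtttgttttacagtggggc
Elovl4: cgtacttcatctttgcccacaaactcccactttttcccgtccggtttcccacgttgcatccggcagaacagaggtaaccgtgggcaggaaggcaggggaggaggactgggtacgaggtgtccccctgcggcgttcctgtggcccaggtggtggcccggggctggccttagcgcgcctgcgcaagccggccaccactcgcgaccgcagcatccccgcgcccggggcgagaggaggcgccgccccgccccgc
RefSeq windows matched 9 of the 10 genes, all except Aloxe3. The Elovl4 stretch holds 69.6% G and C, Cers3 49.6% and Abca12 53.2%. The windows of other genes that rose lie on both sides of Elovl4, at 66.0% for Alox12b and 80.4% for Ugcg. Of 5 motifs searched on both strands, with no match overlapping another, TGANTCA of AP-1 and AACNGGTT of grainyhead-like factors were in 0 of the 9 windows, against 6.7% and 1.8% of 32851 windows of this length. GGGTGTGG of Krüppel-like factors was in 1 window, that of Alox12b (3.2% of all windows), AGGTCA in 1, that of Cers3 (14.0%), and TATAAA, the TATA box, in 1, that of Sdr9c7 (12.4%). These are matches of letters and say nothing of binding. In the other annotation used here, GENCODE M21, the window of Ugcg lies wholly within the gene. Those of Alox12b and Sdr9c7 lie partly within theirs.

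All 10 genes were called under IMQ in WT skin, but the call of Elovl4 did not hold in every setting. Relative to WT control, 9 of the 10 genes rose and 1, Elovl4, fell, each at an adjusted p under 0.05 in the quasi-likelihood test of edgeR, where 14.2% of all tested genes were called higher and 14.3% lower. Sdr9c7, Alox12b and Cers3 rose most, at 8.12-fold, 7.94-fold and 7.85-fold, and Sptlc2 rose least, at 1.71-fold. The median log2 fold change was 2.01 over the 10 genes and -0.02 over all tested genes. For 9 genes the WT control and WT IMQ mice did not overlap, which held for 40.6% of all tested genes. In skin labelled Lcn2-/- the same treatment raised 8 of the 10 (background 14.1% higher and 11.2% lower), with a median of 0.92 against -0.05 over all tested genes, and all 10 had groups that did not overlap (background 45.9%).

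**Figure D1:**
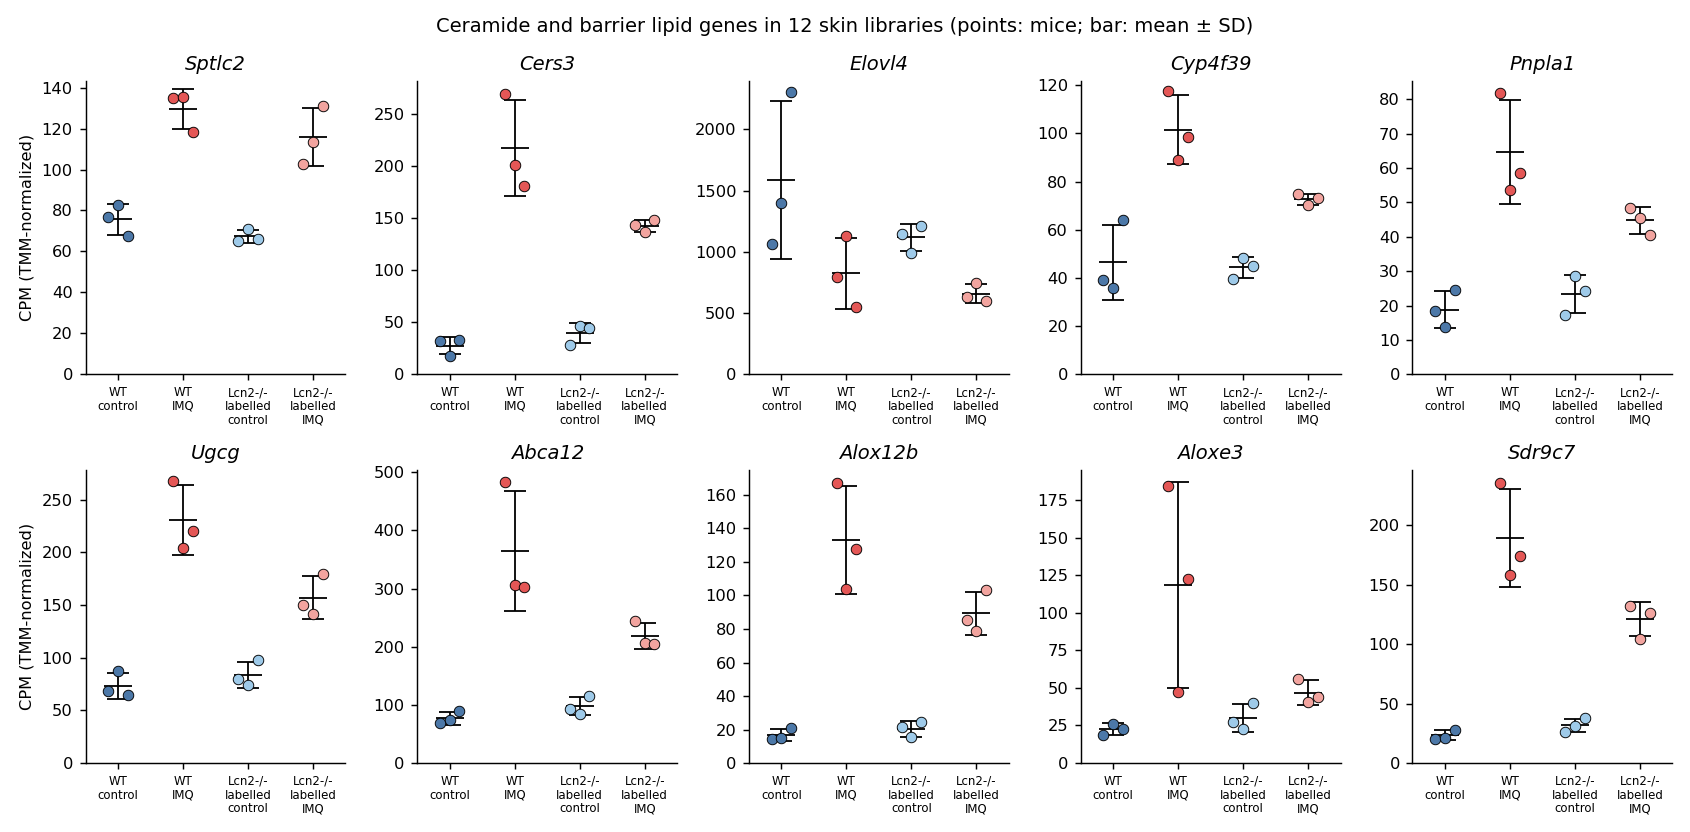
Level of each of the 10 genes in CPM (y axis from 0, TMM-normalized) in the 12 skin libraries, by group; points are mice and bars the mean ± SD of 3. In WT skin the IMQ points lie above the control points for 9 genes, and for Elovl4 the control mouse at 2307 CPM is the highest and the groups overlap.

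The first step of ceramide synthesis is carried out by serine palmitoyltransferase, of which Sptlc2 (ENSMUSG00000021036, chr12:87305058-87388355 on the minus strand) encodes a catalytic subunit. Sptlc2 stood at 76.7, 82.8 and 67.6 CPM in the WT control mice and at 135, 136 and 118 in the WT IMQ mice. The mice labelled Lcn2-/- had 65.3, 71.1 and 66.1 under vehicle and 103, 113 and 131 under IMQ. IMQ values lay above control values with no overlap in both genotypes. Sptlc2 rose 1.71-fold in WT (log2 fold change 0.78, SE 0.12, adjusted p = 0.00064, edgeR) and 1.72-fold in skin labelled Lcn2-/- (log2 fold change 0.78, SE 0.12, adjusted p = 0.000982).

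Cers3 (ENSMUSG00000030510, chr7:66743504-66823691 on the plus strand) encodes the ceramide synthase that uses the very long acyl chains of the epidermis and testis. Its level was 32.4, 17.9 and 32.9 CPM in WT control and 269.5, 202 and 181 CPM in WT IMQ mice. In mice labelled Lcn2-/- it was 28.4, 46.1 and 44.9 CPM under vehicle and 143, 137 and 148 CPM under IMQ, so that the 3 IMQ values were close together and lay between the WT control and the WT IMQ values. Cers3 rose 7.85-fold in WT (log2 fold change 2.97, SE 0.26, adjusted p = 1.67e-05, edgeR) and 3.59-fold in skin labelled Lcn2-/- (log2 fold change 1.84, SE 0.25, adjusted p = 0.000574).

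Elovl4, Cyp4f39 and Pnpla1 act on the acyl chain, and they did not move together. Elovl4 (ENSMUSG00000032262, chr9:83778692-83806277 on the minus strand) encodes the elongase that makes fatty acids of the greatest length. It was counted at 1061, 1399 and 2307 CPM in WT control mice and 796, 1132 and 552 CPM in WT IMQ mice, and at 1147, 994 and 1214 CPM and 633, 745 and 603 CPM in the control and IMQ mice labelled Lcn2-/-. The WT groups overlapped at 1 mouse on either side, and the groups labelled Lcn2-/- did not overlap. Elovl4 fell in WT by edgeR (log2 fold change -0.94, SE 0.29, adjusted p = 0.0312), and without the third WT control mouse, the highest of all 12, the log2 fold change was -0.58 and the adjusted p 0.124. The call was lost as well without the first WT IMQ mouse (-0.91, adjusted p = 0.0987 in edgeR) or without the third (-0.72, 0.115). With all WT mice kept, it held in 2 of 5 other settings of edgeR and DESeq2 (adjusted p from 0.00865 to 0.0954). The change labelled Lcn2-/- was -0.76 (SE 0.29, 95% interval -1.40 to -0.13) and did not pass the threshold in edgeR (adjusted p = 0.0756). It was called lower there by DESeq2 (adjusted p = 0.0452, background 11.2%) and by edgeR fitted to those 6 mice alone (0.00693, background 12.3%). The sebaceous gland markers moved with it. Their summed level ran from 5543 to 9331 CPM in WT control and from 1707 to 4812 CPM in WT IMQ mice, with 9 of 10 markers called lower (background 14.3% in edgeR). In mice labelled Lcn2-/- it ran from 8041 to 11467 CPM in control and 2071 to 4634 CPM in IMQ, with 6 of 10 called lower (background 11.2% in edgeR). None of these markers was at 0 in any library, and their part in the Elovl4 result was not tested.

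Cyp4f39 (ENSMUSG00000061126, chr17:32452723-32493320 on the plus strand) encodes a cytochrome P450, the mouse counterpart of human CYP4F22, which adds the hydroxyl group at the end of the chain. It stood at 39.2, 35.98 and 64.2 CPM in WT control mice, 117, 89.00 and 98.4 in WT IMQ mice, 39.7, 48.3 and 45.1 in control mice labelled Lcn2-/- and 74.7, 70.1 and 72.98 in IMQ mice labelled Lcn2-/-. The IMQ mice were above their controls in both genotypes, and the third WT control mouse was the highest of the 6 controls. Cyp4f39 rose 2.19-fold in WT (log2 fold change 1.13, SE 0.19, adjusted p = 0.00143, edgeR) and 1.64-fold in skin labelled Lcn2-/- (log2 fold change 0.71, SE 0.19, adjusted p = 0.02). The second of these calls was lost when any 1 of 4 mice was left out, KO-labelled control 1 or 3 or KO-labelled IMQ 1 or 3, with adjusted p between 0.056 and 0.0593. Cyp4f39 belongs to a family of similar genes, among which the authors' counting could divide reads.

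Pnpla1 (ENSMUSG00000043286, chr17:28858411-28890309 on the plus strand) encodes the enzyme that joins linoleic acid to the hydroxylated chain and so completes the acylceramide. Its values were 18.5, 13.7 and 24.4 CPM in WT control, 81.8, 53.5 and 58.4 in WT IMQ, 17.4, 28.4 and 24.3 in control labelled Lcn2-/- and 48.3, 45.5 and 40.4 in IMQ labelled Lcn2-/-. Every IMQ mouse was above every control mouse. It rose 3.43-fold in WT (log2 fold change 1.78, SE 0.24, adjusted p = 0.000318, edgeR) and 1.92-fold in skin labelled Lcn2-/- (log2 fold change 0.94, SE 0.24, adjusted p = 0.0144). An antisense gene, Pnpla1os, shares 644 bases, 13.3%, of the exons of Pnpla1, and whether strand was used in counting is not given in the sources used here.

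Acylceramides are glucosylated and packed by the products of the next pair of genes, and both rose in both genotypes. Ugcg (ENSMUSG00000028381, chr4:59189257-59222833 on the plus strand) encodes glucosylceramide synthase. It was at 68.2, 87.6 and 64.8 CPM in WT control and 268, 204 and 220.1 CPM in WT IMQ mice, and at 79.5, 73.7 and 98.02 CPM and 150.4, 141 and 179.8 CPM in the control and IMQ mice labelled Lcn2-/-. The 4 groups fell into 3 levels without overlap, controls of both genotypes lowest, IMQ labelled Lcn2-/- in the middle and WT IMQ highest. Ugcg rose 3.14-fold in WT (log2 fold change 1.65, SE 0.17, adjusted p = 3.52e-05, edgeR) and 1.88-fold in skin labelled Lcn2-/- (log2 fold change 0.91, SE 0.16, adjusted p = 0.00254).

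Abca12 (ENSMUSG00000050296, chr1:71242276-71414910 on the minus strand) encodes the transporter that carries glucosylceramides into lamellar bodies, and its loss causes harlequin ichthyosis. Levels were 68.5, 73.5 and 89.7 CPM in WT control, 484, 306 and 303 in WT IMQ, 93.05, 84.6 and 115 in control labelled Lcn2-/- and 244, 206 and 204 in IMQ labelled Lcn2-/-. They formed the same 3 levels as those of Ugcg, with the first WT IMQ mouse far above the other two. The rise was 4.72-fold in WT (log2 fold change 2.24, SE 0.20, adjusted p = 1.67e-05, edgeR) and 2.24-fold in skin labelled Lcn2-/- (log2 fold change 1.16, SE 0.20, adjusted p = 0.00177).

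The lipoxygenase pathway oxidizes the linoleic acid of acylceramides, a step before they are bound to protein. Alox12b (ENSMUSG00000032807, chr11:69156989-69169792 on the plus strand) encodes the lipoxygenase that comes first. It stood at 14.1, 15.04 and 21.2 CPM in WT control mice and 167, 104 and 128 CPM in WT IMQ mice, and at 21.4, 15.4 and 24.8 CPM and 85.4, 79.04 and 103 CPM in the control and IMQ mice labelled Lcn2-/-. The control groups overlapped, and the highest IMQ mouse labelled Lcn2-/- was just below the lowest WT IMQ mouse. Alox12b rose 7.94-fold in WT (log2 fold change 2.99, SE 0.24, adjusted p = 7.2e-06, edgeR) and 4.34-fold in skin labelled Lcn2-/- (log2 fold change 2.12, SE 0.23, adjusted p = 0.000133).

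Aloxe3 (ENSMUSG00000020892, chr11:69125896-69149115 on the plus strand) lies 7.87 kb upstream of Alox12b on the same strand and encodes the enzyme that turns the product of Alox12b into an epoxyalcohol. Its values were 18.5, 26.3 and 22.5 CPM in WT control mice and 184, 47.6 and 123 CPM in WT IMQ mice, and 27.2, 22.5 and 40.05 CPM and 56.05, 40.9 and 43.7 CPM in the control and IMQ mice labelled Lcn2-/-. The second WT IMQ mouse was far below the other two and within the range of the IMQ mice labelled Lcn2-/-, while for Alox12b the same mouse, at 104 CPM, was the lowest of its group but above all IMQ mice labelled Lcn2-/-. Aloxe3 rose 5.26-fold in WT (log2 fold change 2.40, SE 0.40, adjusted p = 0.00129, edgeR). In skin labelled Lcn2-/- the log2 fold change was 0.65 (SE 0.38, 95% interval -0.19 to 1.49) and did not pass the threshold in edgeR (adjusted p = 0.239), although the 3 IMQ mice were above the 3 controls, the closest pair being 40.9 and 40.05 CPM. Both genes belong to the lipoxygenase family, whose similar members could share reads.

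Sdr9c7 (ENSMUSG00000040127, chr10:127898518-127911761 on the plus strand) encodes the dehydrogenase that oxidizes the epoxyalcohol further. Its levels were 20.5, 21.4 and 28.2 CPM in WT control, 236, 159 and 174 in WT IMQ, 26.5, 31.2 and 37.7 in control labelled Lcn2-/- and 132, 105 and 126 in IMQ labelled Lcn2-/-. Again the WT IMQ mice were highest, the IMQ mice labelled Lcn2-/- came next and the controls lowest, without overlap between these levels. It rose 8.12-fold in WT (log2 fold change 3.02, SE 0.20, adjusted p = 2.18e-06, edgeR) and 3.81-fold in skin labelled Lcn2-/- (log2 fold change 1.93, SE 0.19, adjusted p = 6.7e-05).

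**Figure D2:**
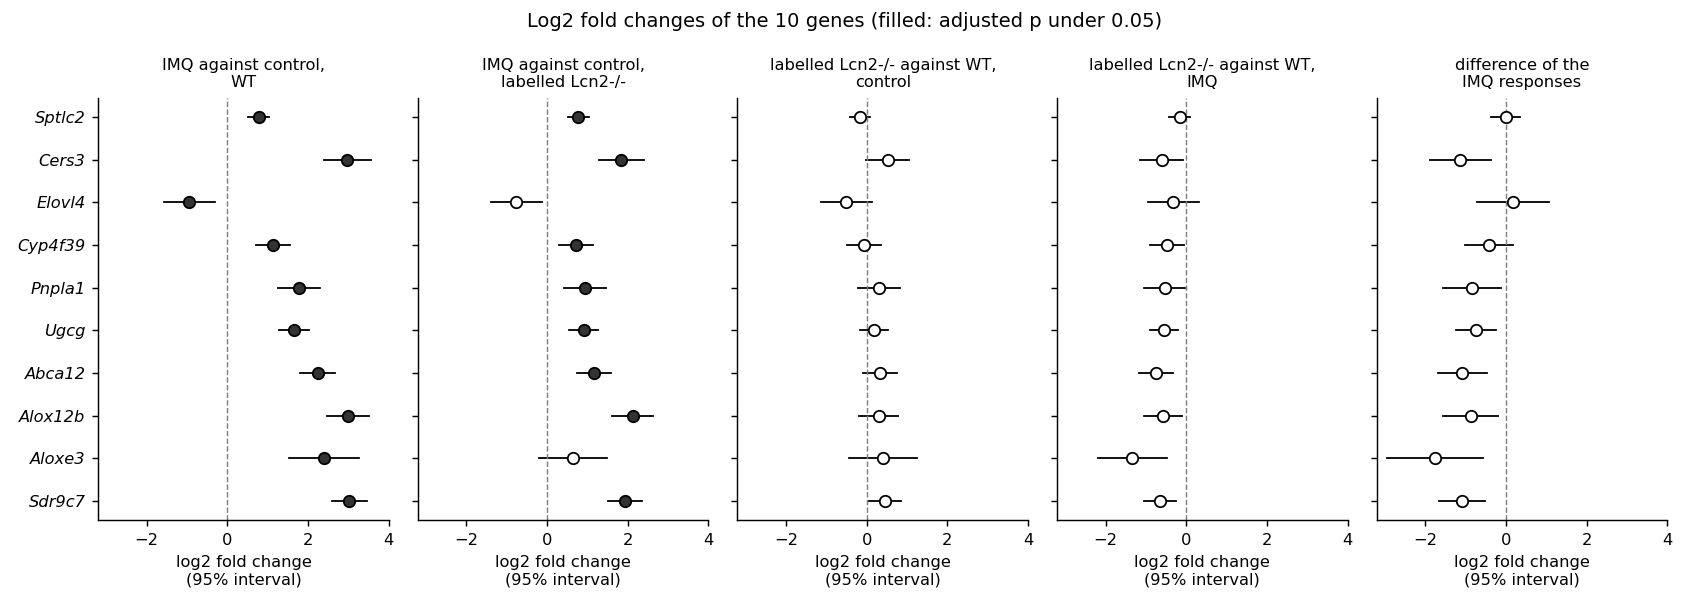
Log2 fold change (x axis, points) with its 95% interval (lines) for the 10 genes in 5 comparisons; filled points have an adjusted p under 0.05 in edgeR. Filled points are in the panels of IMQ against control, 10 in WT and 8 in skin labelled Lcn2-/-; the other panels have none.

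Under vehicle, genotype label made no difference that could be called. In control mice labelled Lcn2-/- against WT control, 0 of the 10 genes passed the threshold in edgeR and 0 in DESeq2, and 1, Sdr9c7, had an unadjusted p under 0.05 (0.0355, log2 fold change 0.45, SE 0.19). The background was 0.0054% called in each direction in edgeR, 0.303% higher and 0.265% lower in DESeq2, and 2.65% higher at the unadjusted threshold. Log2 fold changes lay between -0.51 for Elovl4 and 0.52 for Cers3, and their 95% intervals reached from -1.14 for Elovl4 to 1.26 for Aloxe3. The control groups overlapped for all 10 genes, where 9.37% of all tested genes did not overlap.

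Under IMQ all 10 genes had lower means in mice labelled Lcn2-/- than in WT, but 0 of them passed the threshold in edgeR and 4 did in DESeq2. The background was 2.19% higher and 2.6% lower in edgeR, and 6.54% lower in DESeq2. An unadjusted p under 0.05 was reached by 8 of them, all except Sptlc2 and Elovl4, against 14.5% of all tested genes in that direction. Abca12 came nearest to the threshold (log2 fold change -0.74, SE 0.19, adjusted p = 0.0506), followed by Sdr9c7 (log2 fold change -0.65, SE 0.18, adjusted p = 0.0625), Ugcg (log2 fold change -0.55, SE 0.16, adjusted p = 0.066) and Aloxe3 (log2 fold change -1.33, SE 0.39, adjusted p = 0.0662). Expressed as folds, the level in IMQ mice labelled Lcn2-/- was 0.599 of the WT IMQ level for Abca12, 0.639 for Sdr9c7, 0.656 for Cers3, 0.671 for Alox12b and 0.893 for Sptlc2. The groups did not overlap for 7 genes, against 33.3% of all tested genes; Sptlc2, Elovl4 and Aloxe3 overlapped.

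The response to IMQ was then compared between the genotypes, as the log2 fold change in skin labelled Lcn2-/- minus that in WT. This difference was below 0 for 8 of the 10 genes, and its median was -0.85 on the log2 scale against -0.02 over all tested genes. In the test of that difference 0 genes passed in edgeR, 5 passed in DESeq2 and 7 had an unadjusted p under 0.05. For all tested genes, 1.37% were called higher and 0.783% lower in edgeR, 4.73% were called lower in DESeq2, and 11.9% were lower at the unadjusted threshold of edgeR. Sdr9c7 gave -1.09 (SE 0.26, adjusted p = 0.0541 in edgeR), Abca12 -1.08 (SE 0.27, 0.0618), Cers3 -1.13 (SE 0.35, 0.0925) and Aloxe3 -1.75 (SE 0.54, 0.0952). Sptlc2 was the nearest to equal responses, with a difference whose 95% interval ran from -0.36 to 0.36. The signs of the differences of Sptlc2 and Elovl4 were not the same in every setting tried.

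These calls depended on the tool and on single mice. DESeq2 called 4 genes lower under IMQ, Abca12, Aloxe3, Sdr9c7 and Ugcg, and 5 with a smaller response, the same 4 and Cers3. Without the second WT IMQ mouse edgeR called those 4 genes lower under IMQ, with Aloxe3 at a log2 fold change of -1.71 (adjusted p = 0.00598, background 7.47%). The first WT IMQ mouse was the highest of its group for 8 of the 10 genes, and without it 0 of them, and 0 of all tested genes, were called between the IMQ groups, and the median log2 fold change was -0.40 in place of -0.57. For the difference of the responses, edgeR called Abca12, Cyp4f39 and Sdr9c7 without the third WT control mouse, Abca12, Aloxe3 and Sdr9c7 without the second WT IMQ mouse, and Cers3 and Sdr9c7 without the first control mouse labelled Lcn2-/-. The log2 difference of Sdr9c7 in these 3 settings was -1.25, -1.20 and -1.20, with adjusted p in edgeR of 0.0272, 0.0229 and 0.0396. The background of lower calls there was 1.54%, 4.74% and 1.78%.

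Cell type markers differed between the groups as well, and not all lists moved in the direction of the genes. As background in edgeR, IMQ had 14.2% of all tested genes called higher and 14.3% lower in WT. In skin labelled Lcn2-/- the shares were 14.1% and 11.2%. Between the IMQ groups 2.19% were called higher and 2.6% lower in mice labelled Lcn2-/-, and 14.5% were lower at an unadjusted p under 0.05. The summed level of 8 basal keratinocyte markers was 3294 to 4928 CPM in WT control, 15964 to 23091 in WT IMQ, 3419 to 4246 in control labelled Lcn2-/- and 9612 to 13617 in IMQ labelled Lcn2-/- mice. IMQ raised 7 of the 8 in WT and 5 in skin labelled Lcn2-/-, and 3 of the 8, Itga6, Itgb4 and Trp63, were lower in the latter than in WT under IMQ. For 10 suprabasal keratinocyte markers, of the layers in which the barrier lipids are made, the ranges were 2554 to 4103, 16195 to 19214, 2857 to 3717 and 6796 to 17436 CPM in the same order. In WT 7 of the 10 rose and 1, Flg2, fell under IMQ, and in skin labelled Lcn2-/- 8 rose and Flg2 fell. Between the IMQ groups 0 were called in edgeR. An unadjusted p under 0.05 was reached by 2, of which 1 was higher and 1 lower in mice labelled Lcn2-/-. The 4 hyperproliferative keratinocyte markers, keratins of thickened epidermis, summed to 488 to 1059, 9320 to 19168, 695 to 1230 and 4910 to 8107 CPM in that order, which gives the 3 levels without overlap seen for Ugcg. IMQ raised 3 of them, Krt6a, Krt6b and Krt16, in both genotypes. Between the IMQ groups the log2 fold changes of the 4 lay between -1.34 and -1.19, with 0 called in edgeR and 3 at an unadjusted p under 0.05. No keratinocyte marker was at 0 in any library. The 7 fibroblast markers summed to 10304 to 10929 CPM in WT IMQ and 20206 to 20967 CPM in IMQ mice labelled Lcn2-/-, with 3 of 7, Col1a1, Col1a2 and Col3a1, called higher in the latter and none at 0. Skeletal muscle markers, at 9638 to 11060 CPM in WT control and 3588 to 4401 in WT IMQ and at 4826 to 9120 and 4130 to 6611 in control and IMQ mice labelled Lcn2-/-, fell under IMQ for 6 of 7 genes in WT and 4 of 7 in skin labelled Lcn2-/-. Of 9 leukocyte markers tested, 3 rose and 1 fell in WT and 5 rose in skin labelled Lcn2-/-, with sums over all 10 of 393 to 1014, 768 to 1403, 326 to 654 and 1441 to 1837 CPM in the order WT control, WT IMQ, control and IMQ labelled Lcn2-/-. Of 5 endothelial markers, 1 rose in WT and 3 in skin labelled Lcn2-/-, with sums of 272 to 369, 327 to 535, 213 to 389 and 649 to 660 CPM, and of 7 adipocyte markers 1 fell in each genotype, with sums of 2585 to 4316, 1201 to 2998, 2400 to 5246 and 2436 to 3277 CPM. Between the IMQ groups 0 muscle, leukocyte, endothelial and adipocyte markers were called in edgeR, with 0, 2, 3 and 5 at an unadjusted p under 0.05. Those at the unadjusted threshold were all higher in the IMQ mice labelled Lcn2-/-, a direction in which 2309 of all 18529 tested genes were at that threshold. No muscle, leukocyte, endothelial or adipocyte marker was at 0 in any library. The part of these markers in the results for the 10 genes was not tested.

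**Figure D3:**
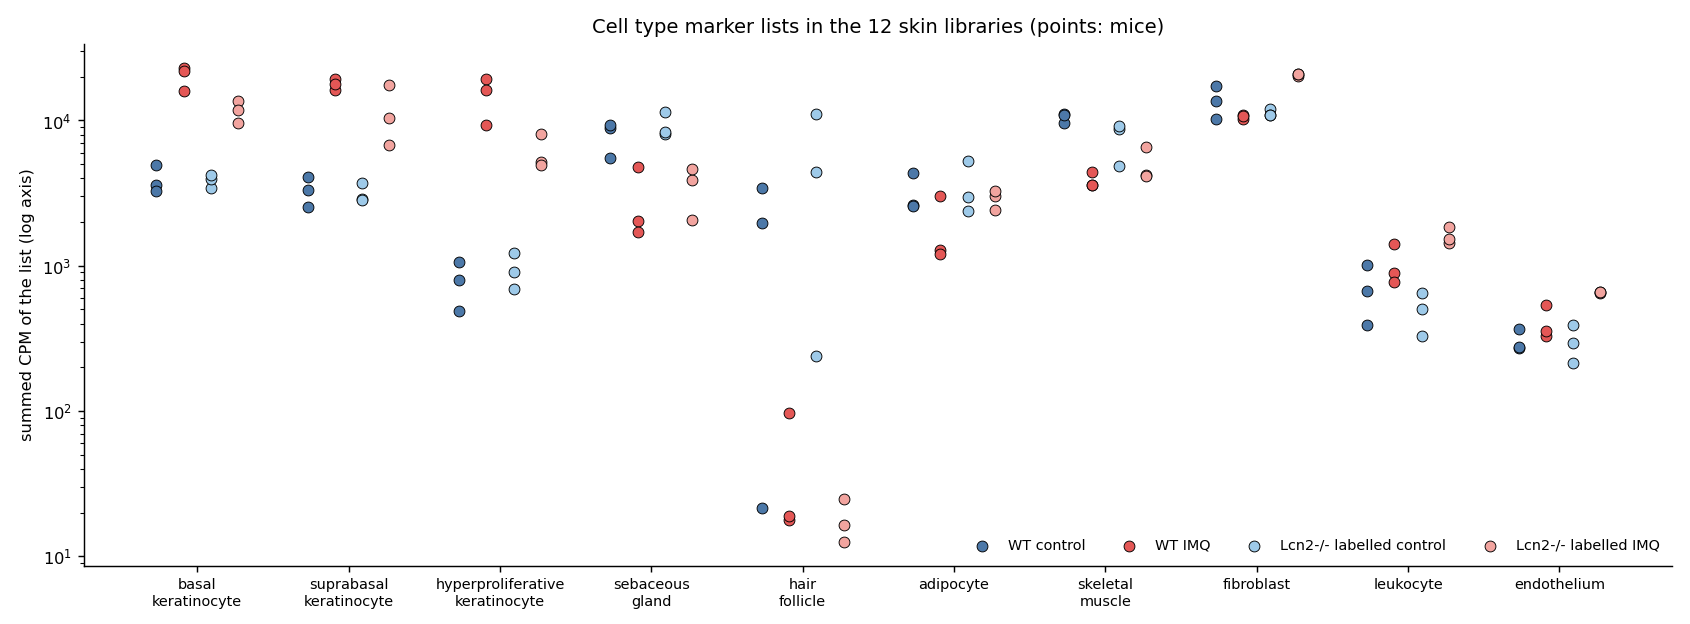
Summed CPM of each marker list (y axis, log scale) in the 12 libraries, coloured by group; points are mice. The keratinocyte lists are higher under IMQ in both genotypes, and the fibroblast list is highest in the IMQ mice labelled Lcn2-/-, at 20206 to 20967 CPM.

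Compared per length, as CPM per kb of exon, Elovl4 had by far the highest level of the 10 genes in every group. In WT control skin it stood at 525 ± 213 CPM per kb (SD, n = 3), and the next genes were Cyp4f39 at 16.3 ± 5.42 and Ugcg at 14.1 ± 2.36, which overlapped each other. Below them came Sptlc2 at 9.33, Cers3 at 8.51, Sdr9c7 at 7.69, Alox12b at 6.90, Abca12 at 5.22, Pnpla1 at 3.90 and Aloxe3 at 3.51 CPM per kb, each of which overlapped its neighbour. Elovl4 and Cyp4f39 did not overlap, nor did Ugcg and Sptlc2.

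Under IMQ the order of these levels per length changed. In WT IMQ skin Elovl4 was still first, at 273 ± 96.3 CPM per kb, with no overlap with the second gene. Cers3 at 66.8 ± 14.2, Sdr9c7 at 62.4 ± 13.5 and Alox12b at 54.7 ± 13.2 came next, then Ugcg at 44.3, Cyp4f39 at 35.6, Abca12 at 24.6, Aloxe3 at 18.5, Sptlc2 at 15.98 and Pnpla1 at 13.3. Neighbours below Elovl4 all overlapped. In control skin labelled Lcn2-/- Elovl4 was first at 369.5 ± 37.3, followed by Ugcg at 16.1, Cyp4f39 at 15.5, Cers3 at 12.2, Sdr9c7 at 10.5, Alox12b at 8.44, Sptlc2 at 8.32, Abca12 at 6.58, Pnpla1 at 4.83 and Aloxe3 at 4.68 CPM per kb. There the neighbours without overlap were Elovl4 and Ugcg, and Sptlc2 and Abca12. In IMQ skin labelled Lcn2-/- Elovl4 stood at 218 ± 24.7. The first 7 genes there were in the WT IMQ order, at 43.8 for Cers3, 39.8 for Sdr9c7, 36.7 for Alox12b, 30.2 for Ugcg, 25.4 for Cyp4f39 and 14.7 for Abca12. Sptlc2 at 14.3 and Pnpla1 at 9.25 came before Aloxe3, which was last at 7.33 ± 1.26 CPM per kb. Ugcg and Cyp4f39, Cyp4f39 and Abca12, and Sptlc2 and Pnpla1 were the neighbours below Elovl4 that did not overlap.

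Across the 12 libraries, Pearson correlations of log2 CPM over the 36 pairs without Elovl4 ran from 0.724 for Sptlc2 and Aloxe3 to 0.991 for Alox12b and Sdr9c7, with a median of 0.93. The 9 pairs with Elovl4 ran from -0.709 to -0.5. The points share libraries, depth and the step from control to IMQ, so these are descriptions. Among 12680 genes with a mean of 5 CPM or more, the most alike over the 12 libraries were Lypd3 (r = 0.996), Smox (r = 0.994) and Zswim4 (r = 0.993) for Cers3, Prss27 (r = 0.996), Itprip (r = 0.996) and Slc26a9 (r = 0.994) for Sdr9c7 and Csta1 (r = 0.996), Sdcbp2 (r = 0.992) and Sdr9c7 (r = 0.991) for Alox12b. The nearest of Elovl4 were Hsd17b12 (r = 0.99), Mid1ip1 (r = 0.971) and Entpd5 (r = 0.959), and Hsd17b12 encodes the ketoacyl reductase of the elongation cycle in which Elovl4 takes part. Those of Pnpla1 were Dsc1 (r = 0.985), Tmem40 (r = 0.985) and Sult2b1 (r = 0.984), of Abca12 Pqlc1 (r = 0.992), Il1a (r = 0.989) and Klk11 (r = 0.988) and of Ugcg Prss22 (r = 0.988), Sbno2 (r = 0.988) and Rab21 (r = 0.982). Those of Aloxe3 were Aldh3b3 (r = 0.984), Mink1 (r = 0.973) and Dock6 (r = 0.971), of Cyp4f39 Cpox (r = 0.993), Rbm7 (r = 0.988) and Btbd19 (r = 0.981) and of Sptlc2 Abi1 (r = 0.989), Capg (r = 0.987) and Actr3 (r = 0.986).

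The other genes of barrier lipid metabolism were taken from lists of 69 names, of which 67 were found in the annotation and 66 tested. In WT, 22 of the 66 rose and 16 fell under IMQ, with a median log2 fold change of -0.03. In skin labelled Lcn2-/-, 20 rose and 13 fell, with a median of -0.01. The medians over all tested genes were -0.02 and -0.05. Of all tested genes, 14.2% were called higher and 14.3% lower in WT, and 14.1% and 11.2% in skin labelled Lcn2-/-. These shares are also the background of the counts by list below.

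Of 13 genes of acylceramide and lipid envelope formation, 9 rose and 2 fell in WT, and 6 rose and 1 fell in skin labelled Lcn2-/-. Tgm1 and Tgm3, transglutaminases that cross-link the cornified envelope, went from 28.8 ± 4.28 to 237 ± 31.4 CPM and from 11.99 ± 4.95 to 253 ± 22.4 CPM in WT (mean ± SD, n = 3), with log2 fold changes in edgeR of 3.04 (SE 0.23, adjusted p = 4.23e-06) and 4.40 (SE 0.69, 0.000928). Tgm1 was also the 1 gene of the 66 called between genotypes in edgeR. It was lower under IMQ in mice labelled Lcn2-/- (log2 fold change -0.97, SE 0.21, adjusted p = 0.0347, edgeR) and had a smaller response (log2 difference -1.57, SE 0.30, adjusted p = 0.0311, edgeR). Of all tested genes, 2.6% were called lower between the IMQ groups and 0.783% for the difference. The count of 1 in 66 is therefore not read as a result about the lists. Lipn, an epidermal lipase, rose by 2.11 in WT, and the cholesterol sulphotransferase Sult2b1 rose by 2.05 in WT and 1.23 in skin labelled Lcn2-/- on the log2 scale. The 2 lipoxygenases that fell in WT were Alox12e, from 200.4 ± 83.9 to 12.1 ± 4.60 CPM (log2 fold change -4.06), and Alox15, from 8.87 ± 5.85 to 0.855 ± 0.604 CPM (log2 fold change -3.35). Both fell where Alox12b and Aloxe3 rose, and Alox12e fell in skin labelled Lcn2-/- too (-4.34).

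Of 16 genes of de novo ceramide synthesis, 3 rose and 5 fell in WT, and 3 rose and 3 fell in skin labelled Lcn2-/-. Degs2, the desaturase and hydroxylase that makes phytoceramides, rose from 3.88 ± 0.870 to 67.05 ± 18.9 CPM in WT (log2 fold change 4.11, SE 0.28, adjusted p = 2.76e-06, edgeR) and from 4.88 ± 1.54 to 65.7 ± 9.85 CPM in skin labelled Lcn2-/- (log2 fold change 3.75, SE 0.27, adjusted p = 1.15e-05). Degs1, which makes the common ceramides, and Sptlc1, the partner subunit of Sptlc2, were the other genes to rise in both (1.25 and 0.95 for Degs1, 0.90 and 0.56 for Sptlc1 on the log2 scale). Cers1, Cers4, Cers5, Fa2h and Ormdl3 fell in WT, and Cers1, Cers5 and Ormdl3 fell in skin labelled Lcn2-/-. Cers5, a ceramide synthase for shorter chains than those Cers3 uses, fell from 354 ± 39.1 to 50.4 ± 8.05 CPM in WT and from 295 ± 45.01 to 56.3 ± 4.96 CPM in skin labelled Lcn2-/- (log2 fold changes -2.81 and -2.39), and Cers1, at under 3 CPM in every library, fell by 2.65 and 1.28 on the log2 scale.

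Of 14 genes of fatty acid supply and elongation, 1 rose and 6 fell in WT, and 2 rose and 5 fell in skin labelled Lcn2-/-. Elovl6, which elongates palmitate, fell from 2080.0 ± 721 to 258 ± 259.6 CPM in WT (log2 fold change -3.02) and from 1684 ± 366 to 223 ± 44.6 CPM in skin labelled Lcn2-/- (-2.92). Hacd2, Elovl7, Hsd17b12, Tecr and Elovl5 were the other genes to fall in WT, and Elovl1, which makes very long saturated chains, was the 1 to rise (1.17 in WT and 0.76 in skin labelled Lcn2-/-). Elovl5, an elongase of polyunsaturated chains, fell in skin labelled Lcn2-/- by 1.80 on the log2 scale, and Hacd4, a dehydratase of the elongation cycle, rose there by 1.67. Acaca, Elovl7 and Hacd2 fell there too. Of 12 genes of glucosylceramide and sphingomyelin processing and lamellar bodies, 6 rose and none fell in either genotype. Psap, the precursor of the saposins that help glucosylceramide hydrolysis, rose in skin labelled Lcn2-/- (log2 fold change 1.29, SE 0.24, adjusted p = 0.00345, edgeR). Of 10 genes of ceramide and sphingosine breakdown, 2 rose and 3 fell in WT, and 2 rose and 4 fell in skin labelled Lcn2-/-. The ceramidase Asah2 rose and the alkaline ceramidases Acer2 and Acer3 and the sphingosine phosphate lyase Sgpl1 fell in both, Sgpp2 rose in WT, and Asah1 rose and Sphk2 fell in skin labelled Lcn2-/-. Under vehicle 0 of the 66 were called between genotypes in edgeR, where 0.0054% of all tested genes were called in each direction. An unadjusted p under 0.05 in edgeR was reached by 4 of the 66, Sptssb, Nipal4, Tgm1 and Hacd1. It was reached by 1223 of all 18529 tested genes, so these 4 do not stand out from the background.

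**Figure D4:**
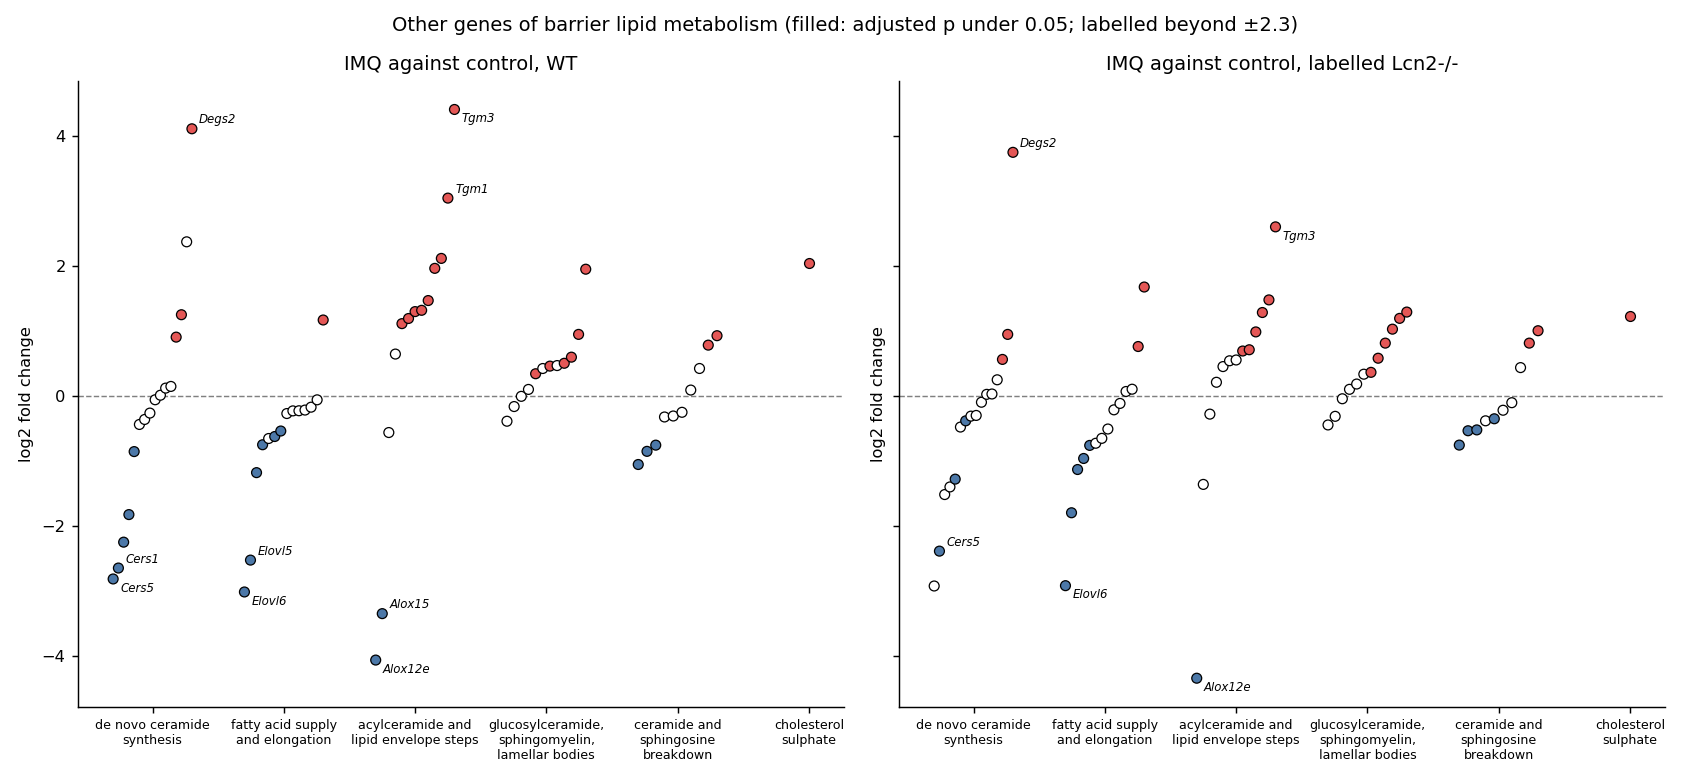
Log2 fold change (y axis) of 66 other genes of barrier lipid metabolism, by list (x axis), for IMQ against control in WT (left) and in skin labelled Lcn2-/- (right); filled points have an adjusted p under 0.05 in edgeR, red for higher and blue for lower. In WT, 9 of 13 points are red in the acylceramide and envelope list and 6 of 14 are blue in the fatty acid list.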

How the data were processed

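Bulk RNA-seq was performed on 12 skin libraries in 4 groups of 3, taken from the sample labels. The labels number the libraries of a group but do not state separate animals; each was taken as 1 mouse, and p-values measure the spread between libraries, which may be technical. The authors deposited raw counts of reads per Ensembl gene. The submitters' notes name HISAT and the build mm8; the counting tool, its strand setting and the annotation are not given in the sources used here. GENCODE M21, on another build (GRCm38), holds 91.5% of the identifiers and supplied names, positions and exon lengths; the others hold 0.567% of the counts. The floor of 3 counts takes in no more than the counting error.

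The quasi-likelihood test of edgeR 4.0.16 (R 4.3.3) was run on all 12 libraries after TMM normalization, with robust estimates. Genes needed a minimum count of 10 and a total of 15. The Benjamini-Hochberg adjustment covered 18529 genes, and an adjusted p under 0.05 was a call, with no fold threshold. The SE came from the log2 fold change and its F statistic. The code was tested on simulated data. Alternatives were RLE size factors, DESeq2 1.42.0, no filter, the compared mice alone, a replicate block, each mouse left out, and a fold above 2 with unadjusted p under 0.05. Each background share is of the genes given an adjusted p in that fit.

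The members, lists and motifs were chosen with earlier results of these data known. Named are the 10 genes, Lcn2, the 5 largest called rises and falls of the lists in each comparison and the 3 genes most like each member; other names were chosen after their values were seen. Several comparisons share a group of mice.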

Additional observations from a re-analysis of the deposited data

How the results depend on the processing

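In WT, 8 to 10 of the 10 genes were called under IMQ in every setting, with Elovl4 the 1 that was lost without the filter, with the compared mice alone, with the replicate block and with some mice left out, and Elovl4 and Sptlc2 lost with the rule of fold above 2. Leaving out 1 mouse gave 9 to 10. In skin labelled Lcn2-/-, leaving out 1 mouse gave 7 to 8 calls, DESeq2 and the compared mice alone each gave 9, with Elovl4 called lower, and the rule of fold above 2 with unadjusted p under 0.05 gave 4 in place of 8. Between the IMQ groups, 0 calls became 4 with DESeq2, 2 without the filter, 5 with the compared mice alone and 1 with the fold rule, and 0 to 4 with 1 mouse left out. For the difference of the responses, 0 became 5, 2 and 4 with DESeq2, without the filter and with the fold rule, and 0 to 3 with 1 mouse left out. Over all tested genes, DESeq2 called 6.54% lower between the IMQ groups and 4.73% lower for the difference. With 1 mouse left out, the highest counts stood beside 7.47% called lower between the IMQ groups, and 1.54% and 4.74% for the difference. The other counts here have no share beside them. Calls over all tested genes moved with the setting too, so the shifts in these counts are not read as a result about the 10 genes. Between the control groups the count was 0 in every setting.

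Over all tested genes, the difference of the responses had 398 calls, against 1907 with DESeq2, 2031 with the fold rule and 2 to 1927 with 1 mouse left out. The control groups had 2, against 105 with DESeq2, 6 without the filter, 0 with the compared mice alone, 422 with the fold rule and 0 to 32 with 1 mouse left out. The IMQ groups had 886, against 2437 with DESeq2, 1894 with the compared mice alone and 0 to 2726. IMQ in WT had 5287, against 3371 with the fold rule and 3289 to 5662, and IMQ in skin labelled Lcn2-/- had 4691, against 2747 to 4288. The cause of these shifts was not tested.

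Same-numbered mice did not deviate together (mean correlation -0.0508, from -0.555 to 0.199, against 0.0272 for other pairs), so the numbers only name mice. With a replicate block the calls over all genes were 10 for the difference of the responses, 0 between the control groups and 136 between the IMQ groups. Among the 10 genes the block ended 1 call, Elovl4 in WT (log2 fold change -0.93, adjusted p = 0.0574 in edgeR).

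Signs turned for 3 small values. The difference of the responses of Sptlc2, 0.0023 on the log2 scale, was -0.005875 with RLE and -0.001577 with DESeq2 and ran from -0.0944 to 0.08381 with 1 mouse left out. That of Elovl4 ran from -0.1855 to 0.481, and the control difference of Cyp4f39 from -0.2 to 0.2386.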
